A study of Homo sapiens with 6 samples.

Results

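Axon guidance ligands and receptors were compared between wild-type (WT) HEK 293T cells and a HEK 293T line in which TUT4 and TUT7 had been knocked out (ΔTUT4/7). The members were the protein-coding genes named as ephrins, Eph receptors, semaphorins of classes 3 to 7, plexins, neuropilins, slits, ROBO receptors, netrins, UNC5 receptors or FLRT proteins whose largest estimated count over the 6 libraries was above 12. This rule gave 69 of the 30270 genes in the count table, of which 34 encode ligands, 32 encode receptors and 3 are FLRT proteins, which act in both ways. All 69 genes whose symbols matched lay above the limit. The members closest to it were ROBO4, with a largest count of 16, NTN5, with 17, and SEMA5B, with 18. Guidance genes outside these 69 were not analysed here as members.

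HEK 293T is a human embryonic kidney line that carries the SV40 large T antigen. Total RNA was depleted of ribosomal RNA and sequenced in 3 WT libraries and 3 libraries of the double knockout, whose genotype the labels give as TENT3A/B, another name for TUT4/7. TUT4 and TUT7 add uridines to the 3′ ends of RNA, and the study asked which transcripts change when both are missing. Neither group received a treatment, and both were kept in the same medium. The WT cells came from a repository and the knockout line came from another laboratory, so the genotype and the origin of the line cannot be told apart, and the p-values measure only the spread between libraries of 1 line per group. Whether the knockout line is a single clone was not given in the sources used here.

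Total counts ranged from 18757228 to 33148937 per library. TUT7 was at 60.4, 62.6 and 64.8 CPM (the count of a gene relative to the scaled library total) in WT and at 27.2, 25.2 and 26.5 CPM in the libraries labelled ΔTUT4/7, a fall by 1.25 on the log2 scale. TUT4 was at 212, 216 and 206 CPM in WT and at 882, 920.4 and 917 CPM in the libraries labelled ΔTUT4/7. This was higher by 2.10 on the log2 scale, the opposite direction to TUT7. RNA counts over a whole gene do not show whether its protein is made, so the knockout could not be checked here. These libraries are named by their label throughout. The embryonic kidney markers summed to between 184 and 201 CPM in the WT libraries and to 190 CPM in those labelled ΔTUT4/7, with OSR1 under 1 CPM in all 6. Within that list 4 of 10 genes were higher and 5 lower, among them GATA3, which was between 18.7 and 22.8 CPM in WT and between 3.22 and 3.35 CPM in the other group. The neuronal marker list summed to between 1246 and 1492 CPM in WT and to between 168 and 174 CPM in the libraries labelled ΔTUT4/7, with 4 of its 10 tested genes higher and 4 lower. NEFM, a neurofilament gene, held most of that difference, with 879 to 1110 CPM in WT and at most 0.0511 CPM in the other group, and the neuronal markers NEFH, ELAVL3 and SNAP25 were under 1 CPM in every library. Fibroblast markers summed to between 23.4 and 27.7 CPM in WT and to between 10.6 and 12.5 CPM in the libraries labelled ΔTUT4/7, while endothelial and leukocyte markers did not exceed 3.46 CPM in any library. Epithelial markers summed to between 45.4 and 49.9 CPM in WT and to between 47.1 and 50.5 CPM in the libraries labelled ΔTUT4/7, with 1 of 5 tested genes higher and 3 lower, and CDH1 was between 3.21 and 4.47 CPM in WT and at most 0.125 CPM in the other group. The neuronal and fibroblast sums and single genes of the kidney and epithelial lists moved with the group, and their part in the results was not tested. In bulk RNA, fewer cells that express a gene and less of its RNA per cell cannot be told apart. Values after ± are SDs over 3 libraries for CPM and shares, and standard errors for log2 fold changes.

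Guidance ligands and receptors steer growing axons and migrating cells by contact or from a distance. Ephrins bind Eph receptor tyrosine kinases on neighbouring cells and signal in both directions, netrins act through DCC and UNC5 receptors, slits through ROBO receptors, and semaphorins through plexins, with neuropilins as co-receptors for most of the secreted class. The same families control cell sorting, adhesion and branching outside the nervous system, and several of them shape the ureteric bud and the glomerulus of the developing kidney.

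More members were lower than higher in the libraries labelled ΔTUT4/7. At a false discovery rate (FDR) under 0.05 in edgeR's quasi-likelihood test, adjusted over all 23952 tested genes, 18 of the 69 members were higher and 35 were lower, against a background of 28.6% higher and 29% lower (57.7% in all) among all tested genes. Among the 14766 tested protein-coding genes 37.9% were higher and 31.8% lower, 69.8% in all. A change of 2-fold or more was reached by 6 members that were higher and 19 that were lower, or 36.2% of the members, where the background was 18.3% of all tested genes (5.9% higher and 12.4% lower) and 16.9% of protein-coding genes (6.26% higher and 10.6% lower). The count limit was passed in 1 group only by 5 members, EPHA10, FLRT2, NTN5, ROBO4 and SEMA5B, of which all but ROBO4 are among those at 2-fold. These were tested only through the group where their counts were larger, so their calls are not independent of the limit. With genes limited to a mean count of at least 50, 34.5% of 58 members and 13.2% of protein-coding genes reached 2-fold. The median log2 fold change was -0.30 over the members, -0.02 over all tested genes and 0.05 over protein-coding genes, and the median size of the change, without its sign, was 0.73 over the members and 0.44 over protein-coding genes. The values of the groups did not overlap for 55 members, where the background was 62.7% of all tested genes and 73.3% of protein-coding genes. Ligands and receptors each held both directions, with 8 of 34 ligands higher and 20 lower and 9 of 32 receptors higher and 15 lower.

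**Figure D1:**
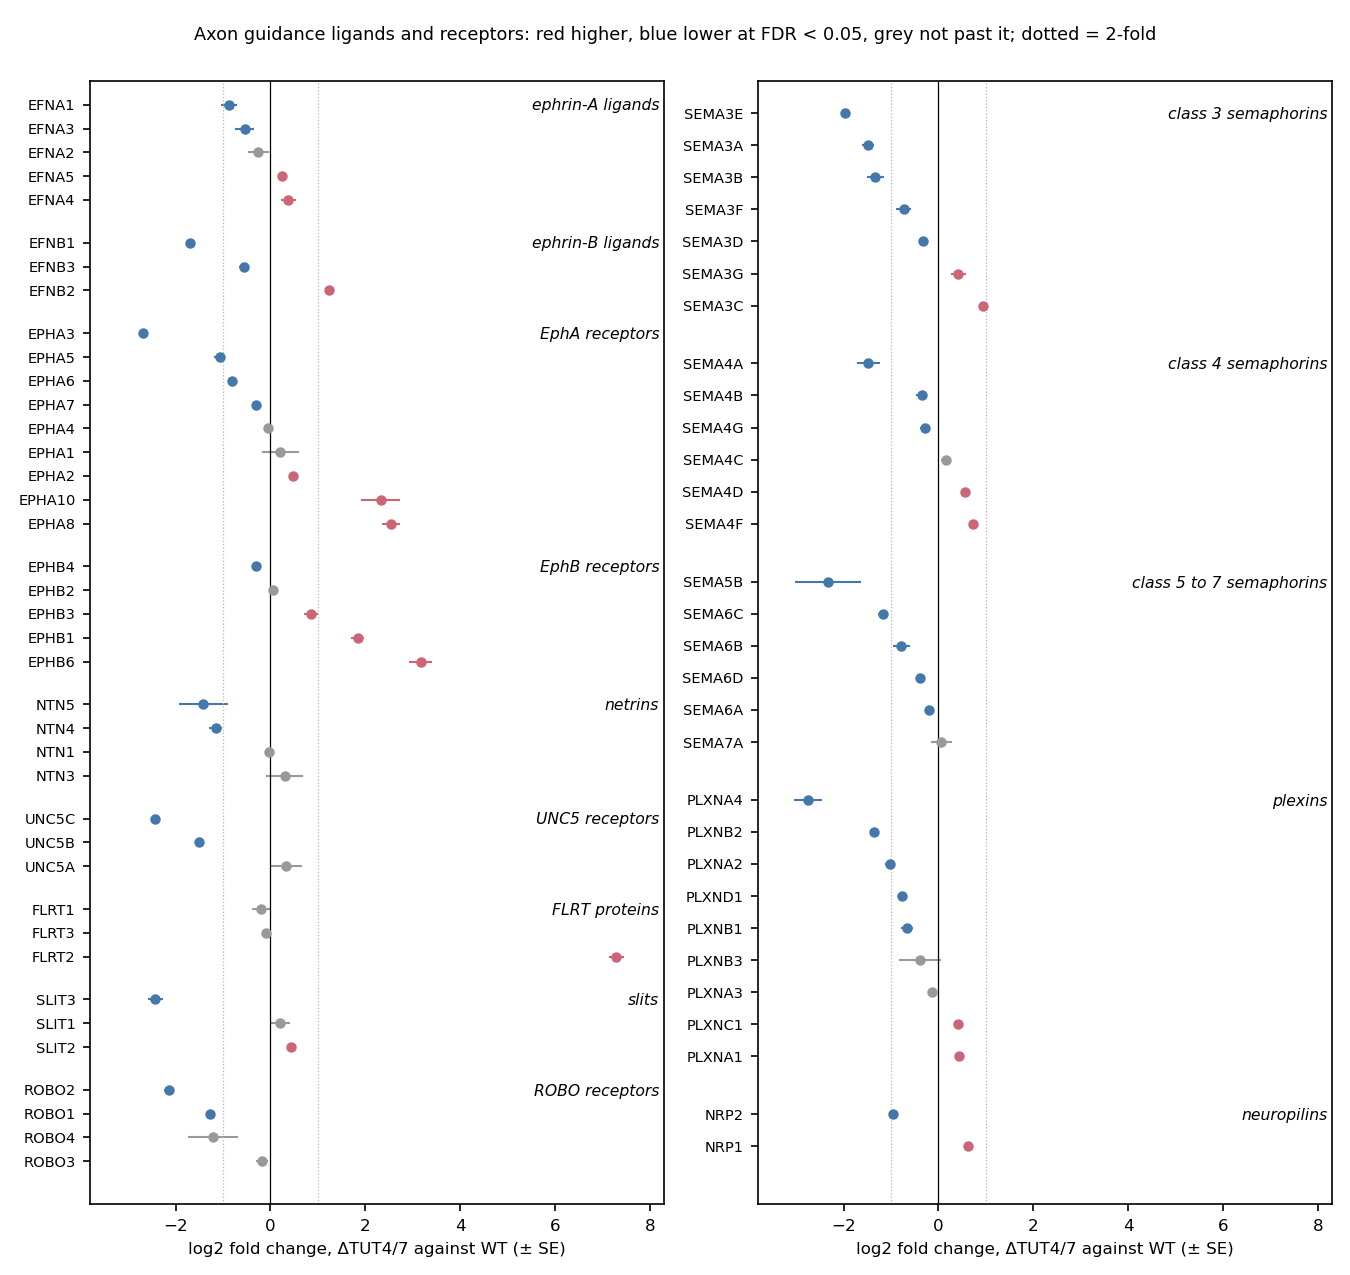
Log2 fold change of each of the 69 members in the libraries labelled ΔTUT4/7 against WT, with its standard error, grouped by family. Red points are the 18 members higher and blue points the 35 lower at an FDR under 0.05, grey points are the 16 members not past it, and FLRT2 lies far to the right of all others at 7.30.

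Genes of the ephrin and Eph families moved in both directions within each class. Among the 8 ephrins, EFNB1 fell and EFNB2 rose by 2-fold or more, and among the 14 Eph receptors EPHA3 and EPHA5 fell while EPHA8, EPHA10, EPHB1 and EPHB6 rose. EFNB1 (chrX:68829021-68842160), a transmembrane ligand for EphB receptors, was at 69.6, 67.7 and 68.4 CPM in the WT libraries and at 21.6, 20.8 and 20.8 CPM in those labelled ΔTUT4/7. The WT values were all higher, with no overlap, and the log2 fold change was -1.70 ± 0.06 (SE, adjusted p = 1.23e-15). EFNB2 (chr13:106489745-106535662), the ephrin that marks arterial endothelium and is also a ligand of EPHB4, had 19.7, 18.0 and 19.6 CPM in WT and 45.8, 43.3 and 46.1 CPM in the libraries labelled ΔTUT4/7. Every library labelled ΔTUT4/7 was above every WT library, and the log2 fold change was 1.24 ± 0.07 (adjusted p = 1.49e-12). The log2 fold change of EFNB2 was 0.33 once the median change of the genes around it was subtracted, and 36.4% of its exon bases also lie in a gene on the opposite strand. EFNB3, the third member of this class, went from 12.1 ± 0.96 to 8.22 ± 0.14 CPM (SD, n = 3 in each group) (log2 fold change -0.56, adjusted p = 0.000110).

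The ephrin-B ligands therefore changed in composition as well as in sum. Levels of different genes were compared per kilobase of exon, taken over all annotated exons of a gene. Shares and ranks on this scale depend on that length, and the transcripts in use were not known. The 3 ligands added up to 28.3 ± 0.69 CPM per kb in WT and 17.9 ± 0.36 CPM per kb in the libraries labelled ΔTUT4/7. EFNB1 held 73.3% ± 1.09 of that sum in WT and 35.6% ± 0.51 in the libraries labelled ΔTUT4/7 (SD, n = 3), and EFNB2 held 13.5% ± 0.35 and 50.2% ± 0.89. EFNB1 was the leading ephrin-B ligand in every WT library and EFNB2 in every library labelled ΔTUT4/7. Of the ephrin-A ligands, which are held to the membrane by a lipid anchor, 2 of 5 were higher and 2 lower. EFNA1 fell from 6.16 ± 0.35 to 3.40 ± 0.83 CPM and EFNA5 rose from 53.1 ± 0.32 to 63.4 ± 0.76 CPM, with log2 fold changes of -0.88 and 0.26, and none of the 5 reached 2-fold. EFNA3 and EFNA4 were called in opposite directions (log2 fold changes -0.54 and 0.38, adjusted p = 0.0220 and 0.0485), but 43.9% and 15% of their exon bases are shared with a readthrough transcript of the pair, and both calls were lost under some alternatives.

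EPHA3 (chr3:89107621-89482134), a receptor for ephrin-A ligands, had the largest fall of any receptor with a mean count of at least 50. It was at 59.1, 61.1 and 56.6 CPM in WT and at 9.27, 9.90 and 8.33 CPM in the libraries labelled ΔTUT4/7. The lowest WT library was far above the highest of the other group, and the log2 fold change was -2.68 ± 0.08 (adjusted p = 4.60e-17). EPHA5, a related receptor, fell from 10.4, 10.5 and 9.98 CPM to 4.99, 5.15 and 4.55 CPM, again with no overlap (log2 fold change -1.07 ± 0.12, adjusted p = 1.04e-07). EPHA8 moved the other way, from 0.967, 1.12 and 1.04 CPM in WT to 6.65, 5.88 and 5.82 CPM in the libraries labelled ΔTUT4/7. All 3 libraries of the second group were higher, with a log2 fold change of 2.55 ± 0.19 (adjusted p = 1.31e-10). EPHA10, which lacks an active kinase, rose from 0.216 ± 0.048 to 1.08 ± 0.18 CPM on a mean count under 50. The most abundant EphA receptors of WT per kb were EPHA3, EPHA4 and EPHA7. EPHA4, which binds ephrins of both classes, held 26.4% ± 0.30 of the EphA sum in WT and 35.4% ± 0.28 in the libraries labelled ΔTUT4/7 although its own level did not pass the test (55.0 ± 3.00 and 52.8 ± 1.37 CPM, adjusted p = 0.424), while EPHA3 went from 32.5% ± 1.32 to 7.05% ± 0.54.

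Among the EphB receptors, 3 of 5 were higher and EPHB4 alone was lower. EPHB1 (chr3:134597801-135260467), a receptor for ephrin-B ligands, was at 3.11, 3.38 and 2.84 CPM in WT and at 10.6, 11.4 and 11.4 CPM in the libraries labelled ΔTUT4/7. The groups did not overlap, and the log2 fold change was 1.84 ± 0.13 (adjusted p = 8.88e-11). EPHB6, a receptor without kinase activity, was at 0.407, 0.461 and 0.554 CPM in WT and at 4.46, 3.92 and 4.75 CPM in the other group. Its lowest value in a library labelled ΔTUT4/7 was above all WT values, with a log2 fold change of 3.17 ± 0.24 (adjusted p = 2.03e-10). EPHB4, the main receptor for EFNB2, fell by 0.30 on the log2 scale, from 59.5 ± 1.53 to 48.2 ± 3.30 CPM (adjusted p = 0.000187). It remained the leading EphB receptor per kb, with 74.5% ± 1.10 of the sum in WT and 55.9% ± 1.58 in the libraries labelled ΔTUT4/7. EPHB2 did not pass the test (23.1 ± 0.99 and 24.0 ± 1.13 CPM, adjusted p = 0.559).

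**Figure D2:**
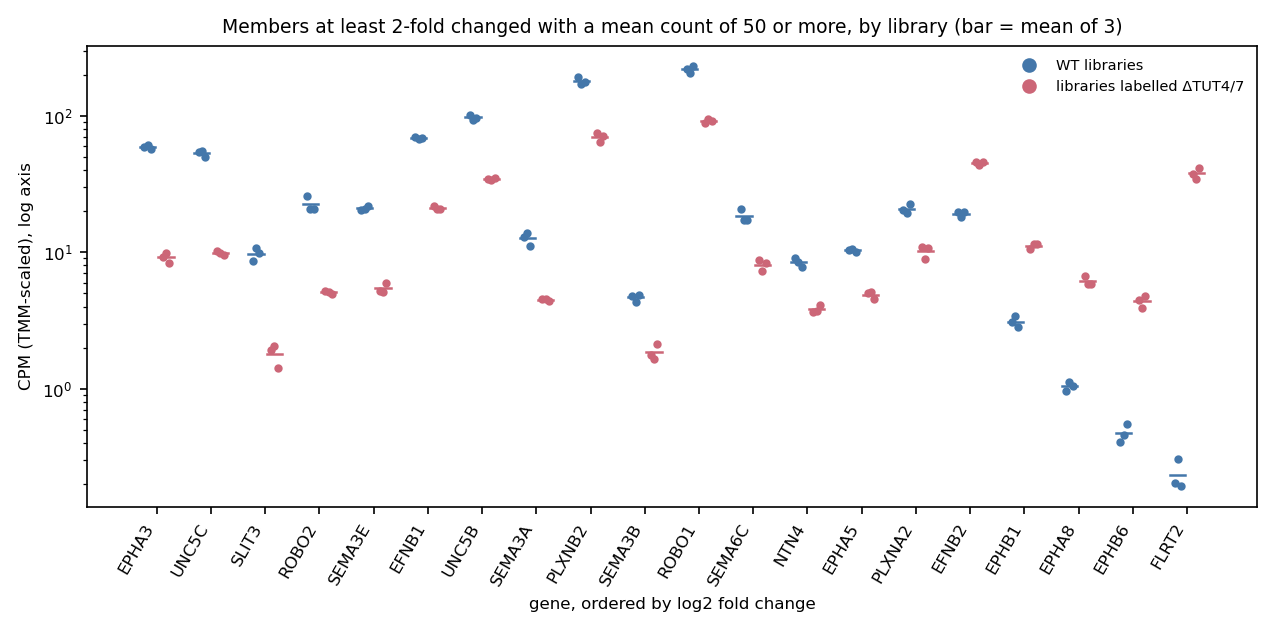
CPM in each library, on a log axis, of the 20 members with a change of 2-fold or more and a mean count of at least 50, ordered by log2 fold change. Blue points are WT libraries, red points are libraries labelled ΔTUT4/7 and bars are means of 3, and the groups do not overlap for any of the 20 genes.

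FLRT2 (chr14:85530144-85654428) had the largest change of all members. FLRT proteins are transmembrane proteins with leucine-rich repeats that bind UNC5 receptors, where they repel, and latrophilins, where they attach cells. The estimated counts of FLRT2 were 4, 8 and 6 in WT and 1207, 671 and 815 in the libraries labelled ΔTUT4/7, or 0.204, 0.308 and 0.196 CPM against 37.7, 34.6 and 41.6 CPM. It had at most 8 counts in a WT library and at least 671 in each library of the other group, with a log2 fold change of 7.30 ± 0.16 (adjusted p = 1.48e-18). Of its relatives, FLRT3 was at 21.7 ± 1.00 and 20.5 ± 0.72 CPM and FLRT1 at 2.99 ± 0.19 and 2.58 ± 0.32 CPM, where neither passed the test (adjusted p = 0.361 and 0.379). Per kb of annotated exon FLRT3 still led the family, with 71.0% ± 1.66 of the sum in the libraries labelled ΔTUT4/7 against 17.9% ± 0.77 for FLRT2, whose annotated exons, 38108 bases in all, are mostly a very long 3′ untranslated region.

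The UNC5 receptors that bind FLRT2 and netrins fell in the same libraries. UNC5C (chr4:95162504-95549206) had 54.3, 55.6 and 50.1 CPM in WT and 10.2, 9.85 and 9.55 CPM in the libraries labelled ΔTUT4/7. No library of the second group came near the WT values, and the log2 fold change was -2.43 ± 0.08 (adjusted p = 1.62e-16). UNC5B (chr10:71212570-71302864), which is also known from vascular sprouting, was at 101, 93.3 and 96.7 CPM in WT and at 34.2, 33.9 and 34.7 CPM in the other group. The WT libraries were again all higher (log2 fold change -1.50 ± 0.06, adjusted p = 2.18e-15). UNC5A was low in both groups, at 0.731 ± 0.073 and 0.892 ± 0.267 CPM, and did not pass the test. Summed, the 3 UNC5 receptors went from 19.4 ± 0.64 to 6.14 ± 0.08 CPM per kb, a ratio of 0.317, the lowest of the 14 families and classes. Of the netrins, a laminin-related family that includes ligands of these receptors, NTN4 was lower with no overlap. It fell from 9.11, 8.5 and 7.83 CPM to 3.65, 3.71 and 4.09 CPM (log2 fold change -1.15 ± 0.14, adjusted p = 2.04e-07). NTN1, the founding chemoattractant of the family, was at 22.6 ± 0.62 and 22 ± 0.29 CPM and did not pass the test (adjusted p = 0.711). NTN5 was called lower on counts between 3 and 17, and that call was lost in DESeq2 and with some single libraries left out.

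The slits and their ROBO receptors did not move together. SLIT2 (chr4:20251905-20620561), a secreted repellent that limits ureteric budding in the kidney, was the most abundant member per kb in both groups, at 33.1 ± 3.18 CPM per kb in WT and 45.0 ± 0.18 in the libraries labelled ΔTUT4/7. In the separate libraries it stood at 401, 366 and 331 CPM in WT and at 498, 495 and 499 CPM in those labelled ΔTUT4/7. The second group was higher throughout, though by less than 2-fold (log2 fold change 0.44 ± 0.06, adjusted p = 2.41e-06). SLIT3 (chr5:168661733-169301139), a close relative, fell from 8.60, 10.8 and 9.95 CPM to 1.93, 2.06 and 1.43 CPM. Its groups were apart, with a log2 fold change of -2.42 ± 0.16 (adjusted p = 3.06e-11). SLIT1 had 3.31 ± 0.68 and 3.76 ± 0.85 CPM and did not pass the test.

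ROBO1 (chr3:78597239-79767998) and ROBO2 (chr3:75906695-77649964), the receptors through which slits repel axons, neighbour each other on chromosome 3. ROBO1 was at 221, 207 and 229 CPM in WT and at 87.7, 94.1 and 91.6 CPM in the libraries labelled ΔTUT4/7. Its WT values were all more than the highest of the other group (log2 fold change -1.27 ± 0.05, adjusted p = 6.10e-15). ROBO2 was at 25.7, 20.9 and 20.9 CPM in WT and at 5.18, 5.10 and 4.95 CPM in the libraries labelled ΔTUT4/7. It too showed no overlap (log2 fold change -2.14 ± 0.11, adjusted p = 5.65e-13). ROBO3, whose product modulates slit responses at the midline, was at 13.9 ± 2.88 and 12.2 ± 1.04 CPM and did not pass the test (adjusted p = 0.278). ROBO4, an endothelial receptor, was at 0.523 ± 0.139 and 0.213 ± 0.064 CPM, close to the count limit. The ROBO sum went from 23.2 ± 1.37 to 10.3 ± 0.15 CPM per kb, a ratio of 0.445, while the slit sum went from 34.1 ± 3.21 to 45.5 ± 0.25 CPM per kb, a ratio of 1.33.

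**Figure D3:**
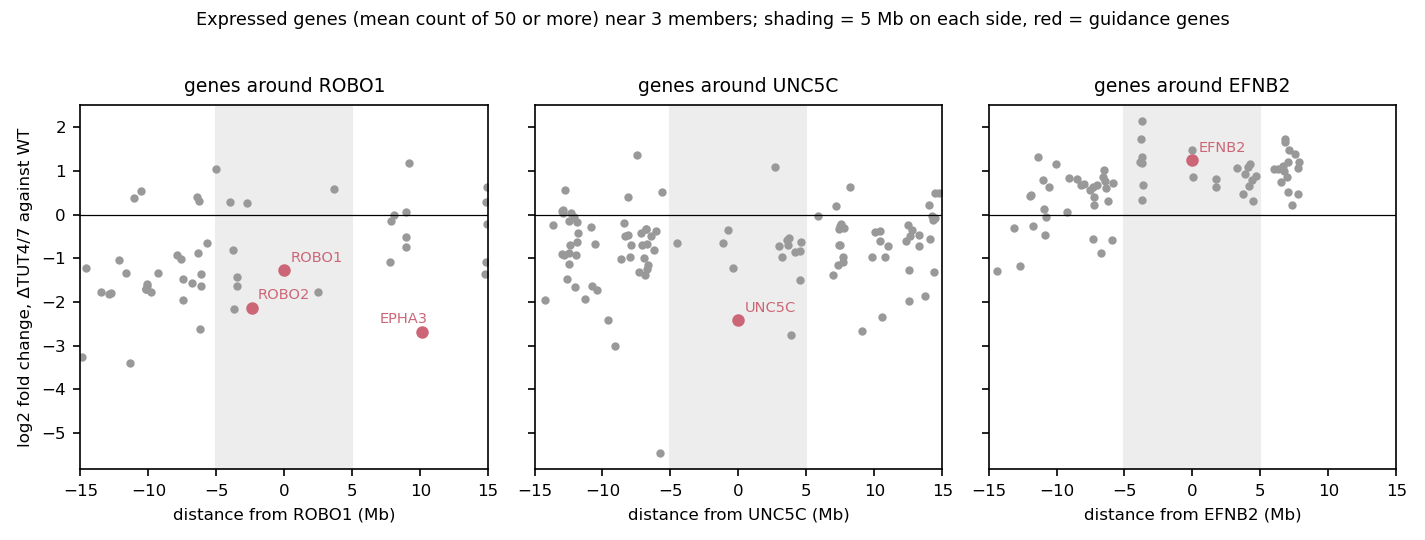
Log2 fold change of genes (mean count at least 50, pseudogenes included) within 15 Mb of ROBO1, UNC5C and EFNB2, against distance from each in Mb. The 5 Mb on each side are shaded and guidance genes are in red. Most genes around ROBO1 and UNC5C lie below 0 and all 20 in the shaded span around EFNB2 lie above it.

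Several of these genes lie among neighbours that changed in the same direction. Within 5 Mb of ROBO1, 6 of 9 other expressed genes (mean count at least 50, pseudogenes included) were lower and 1 was higher. Their median log2 fold change was -1.43. Those not lower, HNRNPA3P6, CAP1P1 and CYP51A1P1, at 0.30, 0.26 and 0.59, were processed pseudogenes. Estimated counts of pseudogenes can share reads with similar genes elsewhere. FAM86DP, an unprocessed pseudogene, was lower, at -0.81. Around ROBO2, whose window overlaps that of ROBO1, the median was -1.27 over 17 genes, which is the value of ROBO1 itself. Around UNC5C 14 of 15 such genes were lower, with a median of -0.69, and the other, RPL5P12 at 1.10, was a processed pseudogene. Around EFNB2 all 20 were higher, with a median of 0.91, and the lowest was the processed pseudogene PARP1P1 at 0.31. The median around EPHA3, on the same chromosome as ROBO1, was -0.17 over 12 genes, and around FLRT2 it was 0.08 over 20. Subtracting the median of its neighbours left ROBO1 with a log2 fold change of 0.16, ROBO2 with -0.87 and UNC5C with -1.74. The median was subtracted as an exact value, though the 9 genes around ROBO1, ROBO2 among them, ranged from -2.15 to 0.59. All the values above 0 among them were of processed pseudogenes. The sign that was left for ROBO1 is therefore uncertain. In all, 11 of the 69 members had a neighbour median above 0.5 in size. Of the 25 members changed by 2-fold or more, 4 shared the sign of such a median: ROBO1, ROBO2, UNC5C and EFNB2. SEMA3B, SEMA3F and PLXNB1 instead fell among neighbours with medians of 0.56, 0.56 and 0.55. The same shares over all tested genes are not given here. What moved these neighbourhoods was not tested.

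Of the class 3 semaphorins, which are secreted and act through plexins with neuropilins, 5 of 7 were lower and 2 higher. SEMA3E (chr7:83363238-83649139), the ligand of PLXND1 in vessel patterning, had 20.4, 20.8 and 21.9 CPM in WT and 5.21, 5.15 and 5.92 CPM in the libraries labelled ΔTUT4/7. The groups were well apart (log2 fold change -1.96 ± 0.10, adjusted p = 6.59e-13). SEMA3A (chr7:83955777-84492724), the collapsing factor for growth cones, had 12.9, 13.8 and 11.2 CPM in WT and 4.56, 4.54 and 4.39 CPM in the other group. Each WT library was higher than each of the others (log2 fold change -1.48 ± 0.12, adjusted p = 9.06e-10). SEMA3B, a ligand first known as a candidate tumour suppressor, fell from 4.79, 4.35 and 4.86 CPM to 1.78, 1.65 and 2.15 CPM, also without overlap (log2 fold change -1.33 ± 0.18, adjusted p = 1.84e-06). SEMA3C, which guides neural crest cells to the cardiac outflow tract, rose from 18.0 ± 1.65 to 34.5 ± 2.36 CPM (log2 fold change 0.94 ± 0.08, adjusted p = 1.99e-09). It made up 24.3% ± 2.10 of the class 3 sum per kb in WT and 50.9% ± 2.90 in the libraries labelled ΔTUT4/7, while SEMA3E went from 20.5% ± 0.88 to 5.77% ± 0.30. The sum itself was 12.1 ± 0.18 and 11.1 ± 0.55 CPM per kb.

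Of the class 4 semaphorins 2 of 6 were higher and 3 lower, and of those of classes 5 to 7 none of 6 was higher and 5 were lower. SEMA6C, a transmembrane semaphorin, was at 20.7, 17.2 and 17.3 CPM in WT and at 8.77, 7.27 and 8.33 CPM in the libraries labelled ΔTUT4/7. It was lower in each of the latter (log2 fold change -1.16 ± 0.11, adjusted p = 6.48e-09). SEMA6A, a ligand of A-type plexins and the most abundant of its group per kb, went from 94.2 ± 0.33 to 81.5 ± 4.17 CPM (log2 fold change -0.21, adjusted p = 0.00149). In class 4, SEMA4D, the ligand of PLXNB1, rose from 21.1 ± 0.72 to 31.0 ± 2.69 CPM and SEMA4F from 19.7 ± 0.59 to 32.6 ± 1.99 CPM, with log2 fold changes of 0.57 and 0.73. SEMA4A, known from immune and retinal cells, fell from 2.53 ± 0.38 to 0.916 ± 0.162 CPM (log2 fold change -1.48, adjusted p = 2.56e-05) on a mean count under 50. SEMA5B had counts of 10, 6 and 18 in WT and 3, 1 and 2 in the libraries labelled ΔTUT4/7 and passed the count limit through 1 WT library.

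Plexins are the signalling receptors of semaphorins, and 5 of 9 were lower and 2 higher. PLXNB2 (chr22:50274979-50307646), a receptor of class 4 semaphorins that also works in kidney and neural progenitors, was at 191, 172 and 175 CPM in WT and at 75.3, 63.6 and 70.8 CPM in the libraries labelled ΔTUT4/7. The groups did not touch (log2 fold change -1.35 ± 0.06, adjusted p = 4.15e-13). PLXNA2, a receptor of class 3 and class 6 semaphorins, fell from 20.3, 19.2 and 22.7 CPM to 10.9, 8.92 and 10.7 CPM. It was close to the 2-fold limit but its groups were separate (log2 fold change -1.02 ± 0.10, adjusted p = 1.58e-08). PLXNA4, a co-receptor for SEMA3A, fell by 2.74 on the log2 scale, from 2.54 ± 0.45 to 0.375 ± 0.108 CPM (adjusted p = 5.51e-08), on a mean count under 50. PLXNA1, which pairs with neuropilins, rose from 81.5 ± 4.06 to 109.5 ± 4.84 CPM (log2 fold change 0.43, adjusted p = 4.10e-07). PLXNB2 led the plexin sum per kb in WT with 58.2% ± 1.42, and in the libraries labelled ΔTUT4/7 it held 35.2% ± 0.93 beside 35.7% ± 0.73 for PLXNA1, which do not differ beyond their spread. The plexin sum went from 42.3 ± 2.02 to 27.3 ± 1.68 CPM per kb, a ratio of 0.645.

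The neuropilins, which bind class 3 semaphorins and also vascular endothelial growth factor, moved in opposite directions. NRP1 rose from 77.8 ± 4.41 to 120.3 ± 3.19 CPM (log2 fold change 0.63 ± 0.05, adjusted p = 8.04e-10) and NRP2 fell from 43.5 ± 2.46 to 22.6 ± 0.88 CPM (log2 fold change -0.95 ± 0.07, adjusted p = 1.19e-10). NRP1 held 68.3% ± 2.46 of their sum per kb in WT and 86.5% ± 0.66 in the libraries labelled ΔTUT4/7, and these shares did not overlap.

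**Figure D4:**
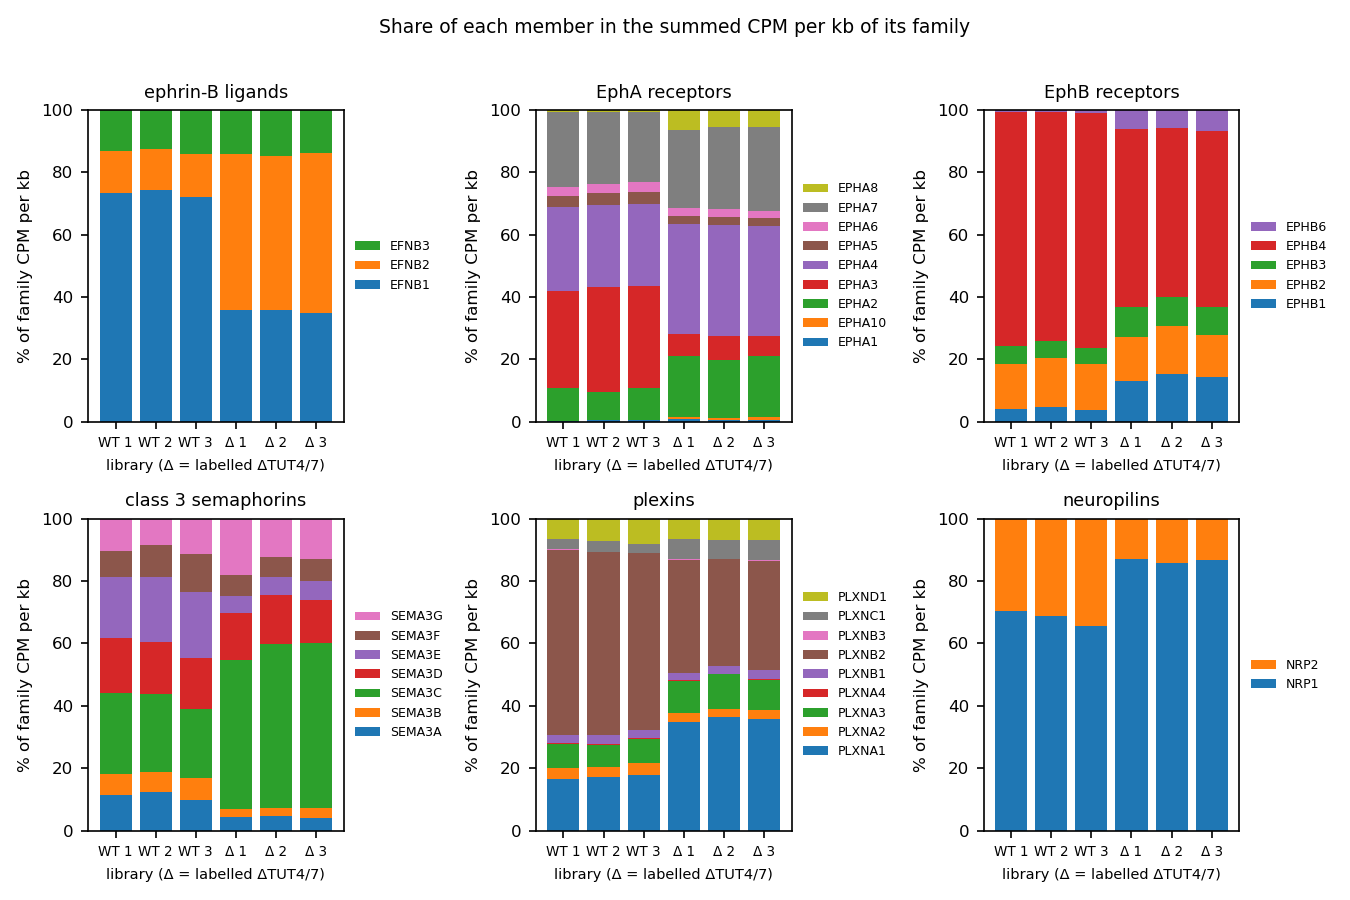
Share of each gene in the summed CPM per kb of its family, in percent, for the 3 WT libraries and the 3 libraries labelled ΔTUT4/7 (Δ). EFNB1 gives way to EFNB2, EPHA3 and PLXNB2 shrink, SEMA3C grows to 50.9% of the class 3 semaphorins on average, and the replicate libraries of a group look alike.

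The order of levels per kb differed between the groups. In WT, SLIT2 came first, followed by PLXNB2 at 24.7 ± 1.4, EFNB1 at 20.8 ± 0.30, ROBO1 at 19.8 ± 1.01 and UNC5B at 14.2 ± 0.59 CPM per kb, and EFNB1 and ROBO1 did not differ beyond their spread. In the libraries labelled ΔTUT4/7, SLIT2 was followed by EFNA5 at 11 ± 0.13, NRP1 at 10.4, PLXNA1 at 9.75, PLXNB2 at 9.61 ± 0.81 and EFNB2 at 9.01 CPM per kb. EPHA3 went from the eighth place to 36 of 69, and FLRT2, last of all members in WT, reached 41.

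The let-7 microRNAs, which the study followed because TUT4 and TUT7 uridylate their precursors, pair with target RNA through a seed at bases 2 to 8. The mature let-7a and let-7i sequences are shown, from RefSeq (GRCh38.p14), with this shared seed in capitals. The matches searched in the members pair with all or most of it.
hsa-let-7a-5p: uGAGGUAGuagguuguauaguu
hsa-let-7i-5p: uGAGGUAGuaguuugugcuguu
The 3′ untranslated region of 1 transcript per gene (GENCODE release 44, hg38) was searched on the sense strand for CTACCTC or TACCTCA, and CTACCTCA holds both. CTACCTC is the complement of the whole seed, while TACCTCA leaves base 8 unpaired and pairs with base 1 instead. At least 1 match lay in 21 of 69 members (30.4%) and in 16.4% of 14314 tested protein-coding genes, with median region lengths of 1485 and 1120 bases. The sites of the members that changed by 2-fold or more with a mean count of at least 50 are shown first, and then 4 of the 8 sites that hold the longest match, with the matching bases in capitals.
EPHA3 (chr3:89479962-89479968, plus strand): agaggaatttaTACCTCAaactatctggc
SEMA3A (chr7:83956297-83956303, minus strand): acctacagcctTACCTCActcagctagca
PLXNA2 (chr1:208023984-208023990, minus strand): tgcttgctgtcCTACCTCtctccacagca
FLRT2 (chr14:85631452-85631458, plus strand): gtaaattgttgTACCTCAtccagtgttaa
FLRT2 (chr14:85636220-85636226, plus strand): taaatattatgCTACCTCtataaaggacc
PLXND1 (chr3:129555904-129555911, minus strand): gcccagaaactCTACCTCAtccacactggt
EPHA6 (chr3:97753586-97753593, plus strand): atatggattcaCTACCTCAaaggtgcctcc
SEMA4F (chr2:74681991-74681998, plus strand): gataataaaacCTACCTCAgggttgcttca
NTN1 (chr17:9240231-9240238, plus strand): acgagacgtagCTACCTCAcggggctcctt
Members with a match went both ways. FLRT2, with 2 matches, had the largest rise, EPHA3, with 1, had one of the largest falls, and among the 8 members with the longest match 3 were lower, 2 higher and 3 not past the test. PLXND1 and EPHA6 fell by 0.77 and 0.80 on the log2 scale, SEMA4F rose by 0.73 and NTN1 stood at -0.04. Both matches in EPHA6 lie past the end of the gene in the count table, chr3:97752460, and so outside the gene as it was counted. The median log2 fold change was -0.28 over the 21 members with a match and -0.31 over the 48 without, and it was -0.03 and 0.06 over protein-coding genes with and without one. A match is a description of the sequence and does not show that the site is used.

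The RefSeq promoter windows, 250 bases before to 50 after an annotated start, matched 60 of the 69 members. A single window was used per gene. For some members, among them ROBO2, EPHB1, PLXNC1 and FLRT1, it lay away from the start of the gene in the count table. A window rich in CpG, with a GC content of 50% or more and an observed-to-expected CpG ratio of 0.6 or more, was found for 66.7% of these members and for 77.1% of 11616 tested protein-coding genes. The median number of CpG per window was 21 in the members and 26 in the protein-coding genes, and TATAAA on either strand was in 1.67% and 6.37% of the windows. These shares are given without a test.

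Genes of the same pathway outside the members were followed in 2 lists, which were chosen with earlier results of these data known. Of 40 other guidance cues and receptors, 35 were tested, and 9 were higher and 17 lower, where 37.9% and 31.8% of protein-coding genes were, with a median log2 fold change of -0.25 and with 4 higher and 6 lower by 2-fold or more (28.6% of the list, 16.9% of protein-coding genes). ADGRL3, a latrophilin that binds FLRT and teneurin proteins, fell from 95.8 ± 5.63 to 26.7 ± 1.21 CPM (log2 fold change -1.84 ± 0.06), and TENM1, a teneurin, fell from 24.2 ± 2.33 to 4.91 ± 0.41 CPM (-2.32 ± 0.11). PTPRD, a receptor phosphatase of synapses, fell by 1.81 on the log2 scale. CELSR3, a cadherin needed for major axon tracts, rose from 18.0 ± 1.60 to 66.3 ± 5.38 CPM (1.89 ± 0.08), and the adhesion molecules NFASC and L1CAM rose by 1.75 and 2.07 on the log2 scale. Of the 55 intracellular effectors of guidance receptors, all tested, 28 were higher and 12 lower, against the same background, and 9.09% reached 2-fold, with a median of 0.20. The split was 23 higher and 18 lower with library size alone and 25 and 18 with upper-quartile scaling. It was 33 and 11 with the GC and length offset and 21 and 11 with the change of neighbouring genes subtracted. DPYSL4 and CRMP1, of the family that mediates semaphorin signals, rose by 2.67 and 1.84 and MICAL2, an actin oxidase downstream of plexins, by 1.14 on the log2 scale. In the rest of the DPYSL family, DPYSL5 and DPYSL3 rose by 0.96 and 0.16, and DPYSL2 fell by 0.30, from 103.8 to 84.3 CPM. FES, a tyrosine kinase linked to SEMA3A signals, was the only effector lower by 2-fold or more (log2 fold change -1.20 ± 0.49, adjusted p = 0.0424), on under 1 CPM in both groups, and it lost that call under several alternatives. The members and the other cues thus had medians below 0, and the effectors had a median above it.

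**Figure D5:**
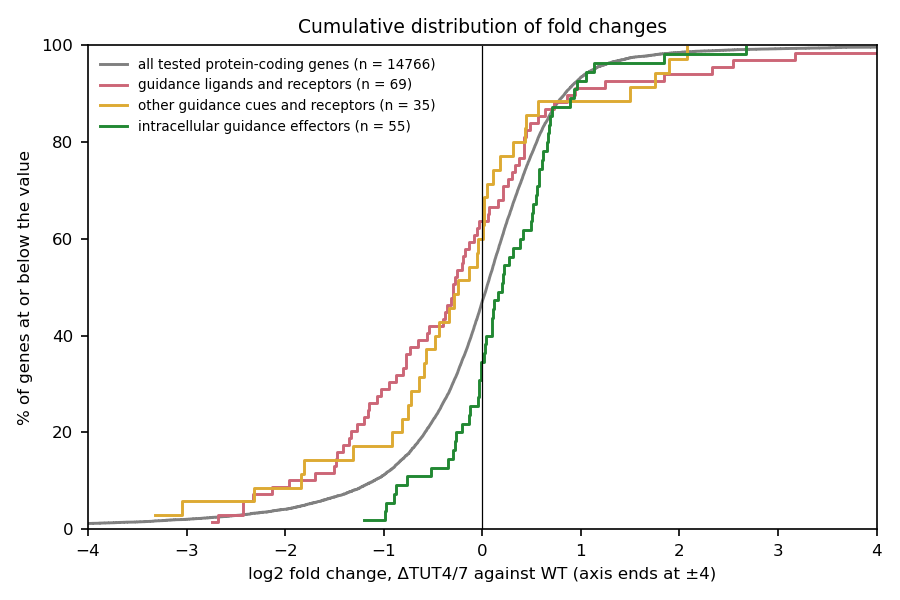
Cumulative percentage of genes at or below each log2 fold change for the 69 members, 35 other guidance cues and receptors, 55 intracellular effectors and all 14766 tested protein-coding genes. The curve of the members, with a median of -0.30, and that of the other cues lie above the grey curve of protein-coding genes on the left, and the effectors, with a median of 0.20, lie below it there.

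Of the 53 called members, 44 were called in the same direction under every one of the 17 alternatives that gave them a value, and of the 25 changed by 2-fold or more, 23 kept the call and 14 also kept the 2-fold size. Of the 16 members not called, 9 were called under at least 1 alternative. Some calls rest on few or shared reads, since 11 members had over 5% of their exon bases in another gene and the strand setting of the counting was not given in the sources used here.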

How the data were processed

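RNA of 3 WT and 3 ΔTUT4/7 HEK 293T libraries was aligned by the authors to hg38 with STAR 2.7.3a and quantified against Ensembl release 102 in Partek Flow 10.0.22 by expectation-maximisation, and the deposited values are estimated counts, which share reads between overlapping or similar genes. A deposited table of the authors' own comparison (p-values, ratios and fold changes) was not used. Groups came from the labels.

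Estimated counts were rounded, and the 23952 genes with a largest count above 12 were tested with edgeR 4.0.16 in R 4.3.3 (TMM scaling, robust quasi-likelihood fit, group as the only term). P-values were adjusted by Benjamini-Hochberg over all of them. Standard errors were derived from that F statistic, and CPM values use the TMM-scaled library size and CPM per kb the annotated exon length of GENCODE release 44. The biological coefficient of variation was 6.44%, and libraries held 18757228 to 33148937 counts, so low counts are less precise. Replicate libraries of a group differed by more than sampling noise. The alternatives were other scalings, DESeq2 1.42.0, limma 3.58.1, other filters, a replicate block, the subtraction of the median change of expressed genes within 5 Mb, an offset for GC content and length, and leaving out each library.

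Named with values in every library were the members past an FDR of 0.05 and 2-fold with a mean count of at least 50, the 5 members with the most counts per kb, the members with 3 counts or fewer over 1 group (there were none), and TUT4 and TUT7. From each pathway list the 3 genes of smallest p in each direction at 2-fold were named by means or fold changes. The rest of the DPYSL family was named beside them. Other members were named in the account of their family. The members and lists were chosen with earlier results of these data known.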

Additional observations from a re-analysis of the deposited data

How the results depend on the processing

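Over the 17 alternatives, 15 to 18 members were higher and 31 to 39 lower at an FDR under 0.05. Members lower by 2-fold or more numbered 12 in limma on log2(CPM + 1), which shrinks low genes, against 19. The median log2 fold change of the members was -0.41 with library size alone, -0.40 with upper-quartile scaling, -0.36 with the GC and length offset and -0.35 with genes of a mean count of 50 or more, and between -0.32 and -0.24 with 1 library left out. The median of all genes, -0.02 in the report, was -0.13 with library size alone and -0.12 with upper-quartile scaling. It was -0.10 with the GC and length offset and -0.0005 with genes of a mean count of 50 or more. With the change of neighbouring genes subtracted, 3 called members changed sign: ROBO1 to 0.16, SEMA4B to 0.28 and SEMA3G to -0.12. Their adjusted p-values in the edgeR test were 0.00728, 0.0498 and 0.551, which take the subtracted median as exact and leave out its uncertainty. EPHA1, NTN3 and SLIT1, called in neither setting, also changed sign. The reason for the shared change was not tested. The other cues higher by 2-fold numbered 2 in limma on log2(CPM + 1) and 2 with the stricter filter, against 4. The effectors lower by 2-fold, 1 in the report, numbered 4 with library size alone, 3 with upper-quartile scaling and 3 with the GC and length offset, 2 with the stricter filter, 0 in DESeq2, in limma on log2(CPM + 1) and with the replicate block, and 0 to 2 with 1 library left out. The replicate numbers are shared by the groups, but same-numbered libraries did not deviate together (correlations 0.05, -0.01 and -0.02, and 2 of 6 libraries correlated best with their own number), so they were not treated as pairs. With the replicate block 17 members were higher and 35 lower. Depth limits NTN5, SEMA5B, EPHA10, ROBO4 and EPHA1, which rest on few counts.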
